A study of Mus musculus with 42 samples.

Results

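Messages recovered with TIA1 from arsenite-treated NIH3T3 cells were examined in 4 of the 42 libraries of the series, AS_TIA1 replicates 1 and 2 and AS_input replicates 1 and 2. The members are all protein-coding nuclear genes with reads in these libraries, 10373 genes, of which 8641 had at least 80 reads over the AS and untreated RIP and input libraries and were tested. NIH3T3 is a mouse fibroblast line. AS cells were kept in 250 µM sodium arsenite for 1 h and harvested without recovery, and NT cells were not treated. RNA was co-immunoprecipitated (RIP) with a goat antibody to TIA1 from cytoplasmic lysate, and about 10% of the same lysate was kept as input. The lysate had been cleared of nuclei and then of heavier material by centrifugation, so RNA in that pellet was not sampled. The counterpart was NT_TIA1 and NT_input, with 2 replicates each, and total RNA of AS and NT cells without RIP (AS0h_T and NT0h_T, 3 replicates each) was used to find stress-induced messages. RNA labelled with 4-thiouridine (4sU) for 1 h before harvest, and the unlabelled flow-through (Ft), of NT cells, AS cells and AS cells after 4 h of recovery in normal medium served as another readout, with 1 library of each kind used per condition. No library of RNA recovered with a control antibody was analysed here, so the ratio of TIA1 to input does not separate TIA1-bound RNA from RNA recovered in other ways. The 2 replicates are described by the study as biological, without more detail, and the p-values measure the spread between these samples.

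TIA1 is an RNA-binding protein with RNA recognition motifs that prefer uridine-rich sequence. It also carries a prion-like domain and helps to build stress granules, the cytoplasmic condensates of untranslated messages that form when arsenite leads to phosphorylation of eIF2α and translation initiation stops. The 3′READS method counts reads at the polyadenylation site (PAS) of poly(A)+ RNA, so each read stands for the 3′ end of 1 message and message length does not enter the count. TIA1 binding efficiency is log2(TIA1/input), computed from reads scaled by library total (RPM, of 1000000 reads) of a TIA1 library and the input of the same number, and averaged over the 2 pairs. It is a ratio within a gene, relative to all messages of the library.

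The windows below show the stretch richest in uridine in the 3′UTRs of some strongly and weakly recovered messages. For each gene they are the 30 nt with the most Us in the 3′UTR that ends at its most used PAS, read from the NCBIM37 (mm9) genome in the sense of the message. They are printed as RNA, 5′ to 3′, and capitals mark runs of at least 4 Us. The first 3 genes were among those with the highest binding efficiency in AS, and the next 2 among the lowest.
Lpp, chr16:24984305-24984334, plus strand: ggUUUUUUUUUUUUUUUgguuugUUUUUUU
Slc25a30, chr14:76160781-76160810, minus strand: UUUUUUUUcuucUUUUUcUUUUUUcUUUUU
Rbpj, chr5:54047189-54047218, plus strand: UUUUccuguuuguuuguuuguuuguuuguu
Rps21, chr2:179993109-179993138, plus strand: auuuguuacaaauaaaagUUUUaaguaccu
Rpl18, chr7:52976163-52976192, plus strand: uggaucuuaacuguuaauaaaaaaaacauu
The next 5 are from messages induced by arsenite.
Mt1, chr8:96704145-96704174, plus strand: gucuuccuauacaguuccacccuguuuacu
Ddit3, chr10:126733295-126733324, plus strand: guacauuguuuauuacuguccauguccagu
Gadd45g, chr13:51943777-51943806, plus strand: augcuuucaUUUUcuaaaggacgcuaucgu
Gadd45a, chr6:66985285-66985314, minus strand: uaUUUUUUUUcUUUUUUUUUUUUggucuuu
Hmox1, chr8:77624347-77624376, plus strand: uaUUUUguugUUUUgUUUUgucuugUUUUU
The windows of Lpp, Slc25a30 and Rbpj hold 25, 26 and 22 Us, and those of Rps21 and Rpl18 hold 12 and 10. The 3′UTRs searched were 13257, 2535 and 2525 nt long for the first 3 genes, and 57 and 42 nt for the next 2. A longer 3′UTR offers more windows, so the richest window also depends on length. U content over the whole 3′UTR was 30.8, 32.5 and 34.1% against 28.1 and 28.6%. Among the stress-induced messages Mt1, Ddit3 and Gadd45g have 12, 13 and 12 Us, while Gadd45a and Hmox1 have 25 and 23. Among others not shown, Mt2 has 12, Hsph1 and Gadd45b 14 each, Zfp36 18, Chac1 19 and Csrnp1 22. Binding efficiency in AS was −2.84 for Mt2 but 0.21 for Hsph1 and −0.32 for Gadd45b, whose windows hold few Us as well.

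The AS libraries held 3376846 and 1956850 PAS reads (input 1 and 2) and 4027553 and 4840926 (TIA1 1 and 2). The median gene tested had 433 reads over the 4 libraries. The files list a cluster only from 5 reads upward, so a gene at 0 had no cluster that reached 5 reads. It may still have had reads at several unlisted clusters. Of the genes tested, 950 were at 0 in at least 1 AS library. Mitochondrial messages made up 3.21 and 3.50% of the input reads and 0.582 and 1.92% of the TIA1 reads, and were not tested. The fibroblast markers were listed in all 4 libraries (10 of 10 genes, summed level 11202 and 12716 RPM in the inputs and 7787 and 13346 RPM in the TIA1 libraries). No reads were listed for 6 of 7 muscle markers (Myod1, Myog and Des among them), 5 of 5 epithelial markers, 2 of 3 endothelial markers and 2 of 4 immune markers (Ptprc, Lyz2). Cd68 (3.55 and 10.2 RPM) and Cd14 (8.29 and 4.09 RPM) were listed in the inputs, where the immune markers summed to 11.8 and 14.3 RPM against 0 and 6.4 RPM in the TIA1 libraries, and their part in the results was not tested.

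Of the 8641 genes, 964 were higher in TIA1 RIP than in input and 568 were lower in AS cells (edgeR's quasi-likelihood test with the lysate as a block, Benjamini-Hochberg adjusted p under 0.05), that is 11.2% and 6.57% of the genes and 17.7% together. All 1532 had the same sign in both pairs, but the calls rest on these same pairs, so this is no separate support. Of all 8641 genes, 3871 were above 0 in both pairs and 2537 below 0 in both. The median binding efficiency of genes called higher was 1.66, or 3.17-fold, and that of genes called lower was −1.79, or 3.47-fold lower. Over all genes tested the median was 0.24, with 10th and 90th percentiles of −1.54 and 1.89. The 2 pairs differed with a median SD of 0.47. Across genes, which are not independent replicates, Pearson's r between the pairs was 0.49 over the 8641 genes and 0.85 over the 2478 genes with at least 1000 AS reads. Without the lysate block the calls fell to 94 and 76, all of them among the genes above. Without AS replicate 1 there were 66 and 89 calls and without AS replicate 2 there were 113 and 124, the remaining AS pair being assumed to vary like the NT pairs. The share of higher genes among those called was 62.9% with library totals, 54.7% with TMM scaling and 45.2% with DESeq2's size factors, under which the median fitted ratio of all genes moved from 0.25 to 0.14 and 0.015.

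**Figure D1:**
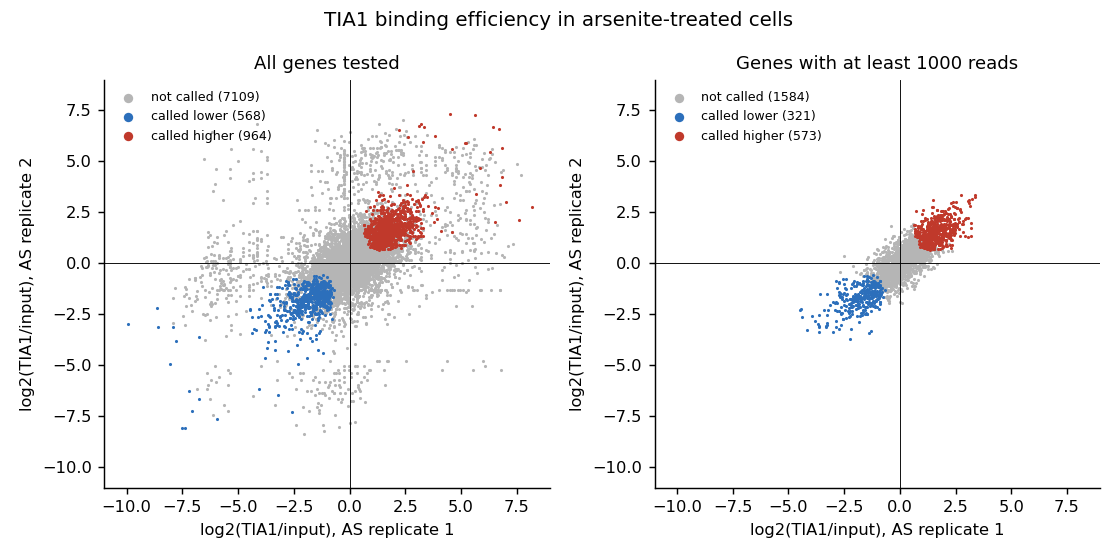
Binding efficiency, log2(TIA1/input), of each gene in AS replicate 1 (x axis) and AS replicate 2 (y axis), for all genes tested (left) and for genes with at least 1000 reads over the 4 AS libraries (right). Red points were called higher in TIA1 RIP, blue points lower and grey points were not called; the points of the right panel lie closer to a line, and the far arms of the left panel hold genes at 0 in a library.

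Among genes with at least 1000 AS reads and listed in all 4 libraries, a limit chosen after values had been seen, the 12 highest included Lpp, Slc25a30 and Rbpj. Lpp, a LIM domain protein of focal adhesions, had 368 and 176 RPM in the inputs and 3850 and 1795 RPM in the TIA1 libraries. Its binding efficiency was 3.37 ± 0.02 (SD, n = 2), 10.3-fold higher than the input, with an adjusted p of 0.0025. Slc25a30, a mitochondrial carrier, had 94.8 and 205 RPM in the inputs against 896 and 1808 RPM in the RIP (3.19 ± 0.07). Rbpj, the DNA-binding partner of Notch, had 120 and 133 RPM against 777 and 823 RPM (2.66 ± 0.05). For these genes each TIA1 value lay far above both inputs.

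The other 9 were Zbtb34 (3.30), Elk1 (3.09), Zfp148 (3.06), Fam135a (3.04), Pcdh19 (3.03), Zbtb41 (2.98), Atf7 (2.76), Cdc73 (2.71) and Slc35a3 (2.69). Zbtb34, Zbtb41 and Zfp148 are zinc finger proteins, Elk1 and Atf7 are ETS and bZIP transcription factors, Cdc73 is a subunit of the PAF complex of RNA polymerase II and Pcdh19 is a protocadherin. The level of Elk1 was 29 and 46 RPM in the inputs and 247 and 398 RPM in the TIA1 libraries. All 12 were also above 0 in NT cells, with means between 2.56 for Pcdh19 and 3.75 for Lpp.

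The 12 lowest genes by the same limit included Rps21, Uqcrq and Rpl18. Rps21, of the small ribosomal subunit, had 5489 and 14356 RPM in the inputs and 447 and 1394 RPM in the TIA1 libraries. Its binding efficiency was −3.49 ± 0.18 (SD, n = 2), 11.2-fold lower than the input, with an adjusted p of 0.0016. Uqcrq, a subunit of respiratory complex III, had 482 and 536 RPM against 39.0 and 64.0 RPM (−3.34 ± 0.40). Rpl18 of the large ribosomal subunit had 305 and 254 RPM against 30.3 and 28.9 RPM (−3.23 ± 0.14).

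Among the others were the histone variant H2afj (−3.71), the ATP synthase subunit Atp5e (−3.39), Rpl27a (−3.38), the Sm core protein Snrpd2 (−3.34), 2900010M23Rik (−3.33), Ndufa7 of complex I (−3.30), cystatin B (Cstb, −3.27) and Ndufv3 (−3.19). The pairs of Atp5e (−4.48 and −2.30) and Snrpd2 (−4.45 and −2.22) lay far apart, and both were low in each. These 12 genes were below 0 in NT cells as well, between −3.53 for Atp5e and −2.02 for Snrpd2.

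Genes with fewer reads reached more extreme ratios. Onecut2, a homeodomain transcription factor, was listed at 0 in both inputs and had 62 and 120 reads in the TIA1 libraries, and Rc3h2 (roquin 2, an RNA-binding ubiquitin ligase) had 29 and 193 reads against 0 and 0. Slc35f5 (51 and 126 reads), the kinase Taok1 (68 and 62), the transcription repressor Bach2 (46 and 54) and Hmbox1 (8 and 93) were also listed at 0 in both inputs. Atp13a3, Zfp369, Itpripl2, Cdon, Kdm5a and Tcp11l1 were at 0 in 1 input. At the other end, 1810035L17Rik (76 and 53 input reads) and Ndufa3 of complex I (69 and 53) were listed at 0 in both TIA1 libraries. Ndufb4, Mrpl13, Mif, Rnaseh2c, Rps26, Emp3 and Lyrm2 were at 0 in TIA1 replicate 1 alone, and S100a13, Tmem141 and Rps15 in TIA1 replicate 2 alone. These 24 were chosen from the genes called, and no fold is given against a group at 0. Of all genes called, 26 that were higher and 16 that were lower had a 0 in at least 1 AS library.

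Gene lists of known function were compared next. The nuclear-encoded respiratory chain had 49 of 68 tested genes called lower and 0 higher, against 6.57% lower over all genes, with a median of −2.10. Cox4i1, of complex IV, had 1368 and 1196 RPM in the inputs and 214 and 422 RPM in the TIA1 libraries (−2.09 ± 0.83, SD, n = 2). Ndufb2, of complex I, had 1942 and 1535 RPM against 416 and 307 RPM (−2.27 ± 0.07), and Cox7a2l fell less (−1.34 ± 0.32). The only member with a large positive mean, Atp5s (1.65), had 14 reads in 1 TIA1 library and 0 in the other 3. The mitochondrially encoded subunits, which were not tested, were low too, with mt-Nd4 at −2.15 ± 0.98 and mt-Nd1 at −1.23 ± 1.29, although mt-Nd6 was at 0.75 ± 1.30.

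Cytosolic ribosomal proteins had 34 of 60 tested genes called lower, against 6.57% over all genes, none higher and a median of −2.0. Rpl8 had 9828 and 10360 RPM in the inputs and 2842 and 2861 RPM in the TIA1 libraries (−1.82 ± 0.05), and Rps20 was at −3.09 ± 0.24. The exception in sign was Rpl15 (0.30 ± 0.45), which did not pass the test and fell to −0.02 without AS replicate 1. Ribosomal protein genes have near-identical processed copies, so their counts are less certain than those of single-copy genes. Other messages with a 5′ terminal oligopyrimidine (TOP) tract are translated in step with the ribosomal proteins. They had 9 of 17 genes called lower, against 6.57% over all genes, none higher and a median of −1.66. They included the ribosomal scaffold Gnb2l1 (−1.66 ± 0.06), vimentin (Vim, −1.68 ± 0.29), Eif3h (−1.67 ± 0.53) and, less low, elongation factor Eef2 (−0.90 ± 0.02). Eif4b, in contrast, was at 0.51 ± 0.09 with an adjusted p of 0.25.

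Proteasome subunits had 11 of 30 genes called lower, against 6.57% over all genes, and a median of −1.0. The core subunits Psma6 (−1.36 ± 0.53) and Psma7 (−1.15 ± 0.03) were among them. Psmd11, a lid subunit, went the other way: it had 152 and 224 RPM in the inputs and 426 and 706 RPM in the TIA1 libraries, a binding efficiency of 1.57 ± 0.12 (adjusted p = 0.0062) and the only call of the list that was higher. Of actin cytoskeleton genes 5 of 18 were called lower (6.57% over all genes) and none higher. At 1000 AS reads or more, 12 were left, with 2 called higher and 5 lower, against 729 and 418 of 2478 genes. Among those called lower in the fit of all genes were Actb (−0.90 ± 0.45), Acta2 (−1.36 ± 0.42) and the tropomyosin Tpm2 (−1.97 ± 0.33). Their pairs agreed in sign, and the list median was −0.30.

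Of AU-rich element binding proteins 3 of 12 were called higher, against 11.2% over all genes, and none lower, with a median of 0.67. Elavl1 (HuR), a stabilizer of AU-rich messages, had 1139 and 721 RPM in the inputs and 4082 and 2708 RPM in the TIA1 libraries (1.88 ± 0.05, adjusted p = 0.0029). Pcbp1 (−0.30 ± 0.28) and Pcbp2 (0.39 ± 0.00), which bind poly(C), were not called. Stress granule proteins had 3 of 19 genes called higher, a share near that of all genes (11.2%), and none lower. Their median was 0.76, and 0.36 without AS replicate 1. The share depended on depth. At 1000 AS reads or more, a limit added after values were seen, 6 of the 9 genes left were called higher. Of all genes at that limit, 729 of 2478 were. The translational repressors Fmr1 (79.1 and 59.8 RPM in the inputs, 315 and 273 RPM in the RIP) and Pum2 (25.8 and 37.8 RPM against 110 and 163 RPM) had binding efficiencies of 2.09 ± 0.14 and 2.10 ± 0.01.

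In the fit of all genes, Tia1 itself was the third gene called on that list. Its message had 31.4 and 57.2 RPM in the inputs and 119 and 180 RPM in the TIA1 libraries, or 1.78 ± 0.19 with an adjusted p of 0.0065. The granule nucleator G3bp1 (0.81 ± 0.09, adjusted p = 0.057) was above 0 in both pairs without passing the test. Fxr1 (−0.33 ± 0.44) and Ybx1 (−1.79 ± 0.32) were below 0 and not called.

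Of messages reported as TIA1 or TIAR targets in other work, 3 of 13 were called higher and 1 lower, against 11.2% and 6.57% of all genes. Their median was 0.52. The hypoxia factor Hif1a had 4901 and 1719 RPM in the inputs and 13653 and 6888 RPM in the TIA1 libraries (1.74 ± 0.37, adjusted p = 0.0040), and Apaf1, the scaffold of the apoptosome, was at 2.09 ± 0.53. Actb was the member called lower, while Mcl1 (0.20 ± 0.42) and Ccnb1 (−0.06 ± 0.47) lay near 0. Zinc finger genes of the Zfp family had 11 of 199 called higher and 3 lower, shares below those of all genes (11.2% and 6.57%), and a median of 0.45. Few of them were deeply read. At 1000 AS reads or more, 13 were left, with 5 called higher and 2 lower, against 729 and 418 of 2478 genes. Zfp384 (1.49 ± 0.21) and Zfp655 (1.09 ± 0.21) were higher, and Zfp68 was at 0.00 ± 0.10.

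Extracellular matrix genes had shares close to those of all genes (11.2% higher and 6.57% lower), with 3 of 27 called higher and 2 lower. Their median was 0.35, and 0.57 without AS replicate 1. Thbs1 (thrombospondin) had 1193 and 690 RPM in the inputs and 4487 and 1661 RPM in the RIP (1.59 ± 0.45), and the collagenase inhibitor Timp1 was at −1.59 ± 1.16. Immediate early genes had 4 of 26 called higher and 1 lower, against 11.2% and 6.57% of all genes (median 0.43, or 0.16 without AS replicate 1). The transcription factors Klf6 (1.39 ± 0.06) and Fosl2 (1.03 ± 0.32) were higher, and Ier3 had 598 and 329 RPM in the inputs against 125 and 72.3 RPM in the RIP (−2.22 ± 0.05). Of cytokine and growth factor messages, 1 of 10 was called higher, near the 11.2% of all genes. This was the prostaglandin synthase Ptgs2 (1.44 ± 0.24), and the list median was 0.38. Ccl2 (0.62 ± 0.06) and Vegfa (1.56 ± 0.03, with 10 and 22 input reads) were above 0 in both pairs and were not called.

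**Figure D2:**
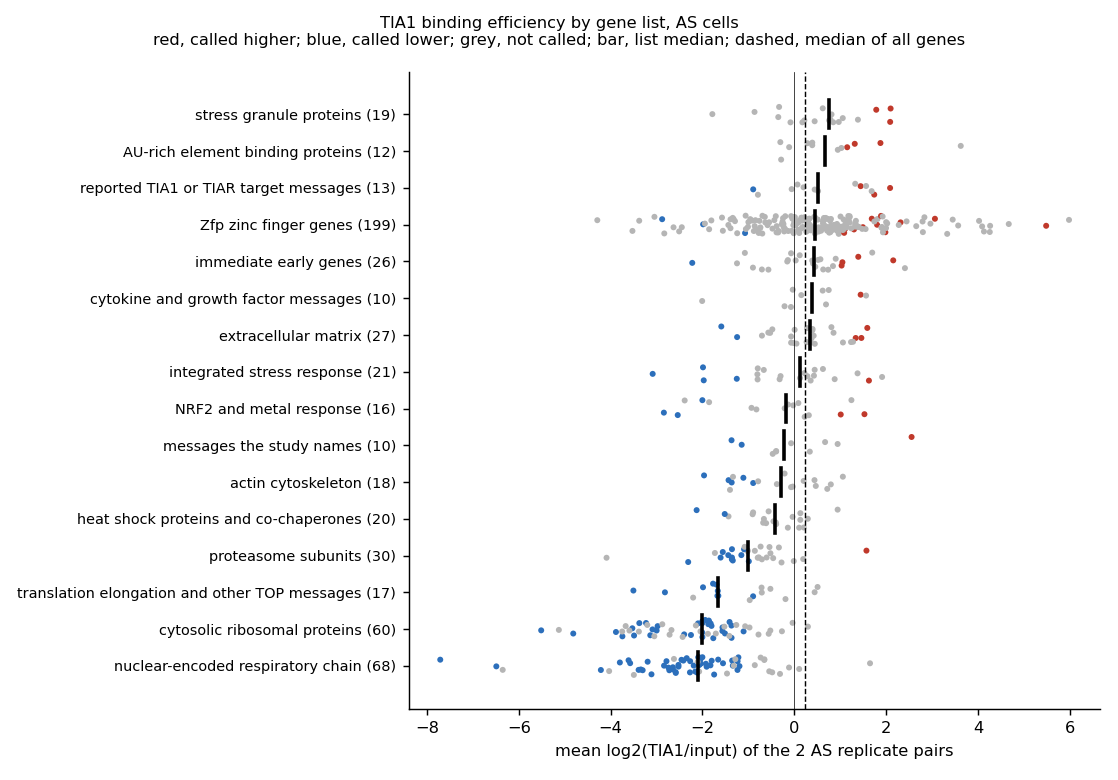
Mean log2(TIA1/input) of the 2 AS pairs (x axis) for every tested gene of each list, with the number tested in brackets. The respiratory chain and ribosomal protein lists lie almost wholly to the left of 0, with medians of −2.1 and −2.0, and the stress granule list lies mostly to the right, with a median of 0.76 (0.36 without AS replicate 1); the direction of a list near 0, such as the integrated stress response (0.12), turns to −0.12 with DESeq2's size factors and to −0.54 without AS replicate 1.

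The lists were read with and without the lysate block. Without it, 94 of the 8641 genes were called higher and 76 lower. A short list with 0 or 1 calls thus lay near the share of all genes. The genes called lower then numbered 17 for the respiratory chain, 7 for ribosomal proteins and 3 for TOP messages. They numbered 2 for the NRF2 and metal response, 1 for heat shock proteins and 0 for the proteasome, actin and the other lists. The genes called higher numbered 1 each for stress granule proteins, reported targets and Zfp genes and 0 elsewhere. Without AS replicate 1 or 2, the medians of the respiratory chain and of ribosomal proteins lay between −2.20 and −1.82. Those of TOP messages were −1.51 and −1.29, of the proteasome −0.94 and −1.03 and of actin −0.44 and −0.58.

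Messages induced by arsenite were chosen in total RNA, in libraries that are not part of the ratio. Of 8974 genes tested, 12 rose at least 2-fold with an adjusted p under 0.05 (edgeR with the replicate number as a block), which is 0.134% of the genes, and 590 had an unadjusted p under 0.05. In the RIP 5 of the 12 were called lower, against 6.57% of all genes, and 0 higher, against 11.2%. Their median binding efficiency was −0.23, against 0.24 over all genes. All of the 12 but Hsph1 (366 AS reads) had at least 1000 AS reads. In the fit of genes at that limit, larger shares were called, with 418 of 2478 genes lower and 729 higher. The calls and the median depended on how the messages were chosen. The RIP fit, and so the shares of all genes, stayed the same for each choice. DESeq2 found 30 induced genes, of which 2 were called higher and 5 lower in the RIP. Without total RNA replicate 1 there were 10, with 1 higher, 0 lower and a median of 0.04, and without replicate 4 there were 52, with 5 higher, 6 lower and a median of 0.18. RPM is a share of a library, and more RNA per cell and more cells with the RNA cannot be told apart in such bulk samples.

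The metallothioneins, small proteins that chelate metals, were the least bound. Mt1 rose 3.01-fold in total RNA. It had 605 and 440 RPM in the NT inputs and 1175 and 661 RPM in the AS inputs, but 63.9 and 76.5 RPM in the NT RIP and 177 and 130 RPM in the AS RIP. Its binding efficiency in AS was −2.54 ± 0.28 (SD, n = 2; adjusted p = 0.0023). Mt2 had 1180 and 639 RPM in the AS inputs and 113 and 130 RPM in the AS RIP (−2.84 ± 0.77; adjusted p = 0.0023). For both genes the RIP values lay below both inputs, and both calls were the same under each of the 12 alternatives run.

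Ddit3 (CHOP), a transcription factor of the integrated stress response, rose in the input from 84.6 and 154 RPM in NT cells to 343 and 504 RPM in AS cells. In the RIP it went only from 62.7 and 82.7 RPM to 122 and 89.7 RPM. Its binding efficiency was −1.99 ± 0.71 in AS (adjusted p = 0.0058) and −0.66 ± 0.33 in NT. The Gadd45 genes encode small sensors of genotoxic and other stress. Gadd45g rose in the input from 34.9 and 28.1 RPM to 192 and 195 RPM, while in the RIP it was at 44.8 and 35.3 RPM in NT and 69.8 and 34.7 RPM in AS cells. The AS value was −1.97 ± 0.73 (adjusted p = 0.0077) and the NT value 0.34 ± 0.03.

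For Gadd45g and Ddit3 the input thus rose in both pairs by more than the RIP did. The difference between AS and NT was −2.31 for Gadd45g (unadjusted p = 0.0013, adjusted p = 0.80, edgeR), with adjusted p between 0.028 and 1 over 11 alternatives, the lowest from DESeq2. For Ddit3 it was −1.32 (unadjusted p = 0.019, adjusted p = 1) and the lowest adjusted p of any alternative was 0.31. The call of Gadd45g against input was lost under 3 of 12 alternatives and that of Ddit3 under 2.

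Gadd45a and Gadd45b were recovered about as their inputs were. Gadd45a had 85.3 and 86.9 RPM in the AS inputs and 139 and 98.7 RPM in the RIP (0.44 ± 0.37), and Gadd45b was at −0.32 ± 0.42. Hmox1, the heme-degrading enzyme induced by oxidative stress, rose 5.61-fold in total RNA and had 358 and 650 RPM in the AS inputs against 407 and 473 RPM in the RIP. Its binding efficiency of −0.14 ± 0.46 was not called, and its 2 pairs differed in sign. Csrnp1 (0.44 ± 0.44), the glutathione-degrading enzyme Chac1 (0.62 ± 0.63) and Zfp36 (0.39 ± 0.22), whose protein binds AU-rich elements and promotes decay, were above 0 in both pairs and not called. Hsph1, a large heat shock protein, was at 0 in both NT inputs and at 25.8 and 18.4 RPM in the AS inputs, with 42.2 and 15.1 RPM in the AS RIP (0.21 ± 0.71).

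**Figure D3:**
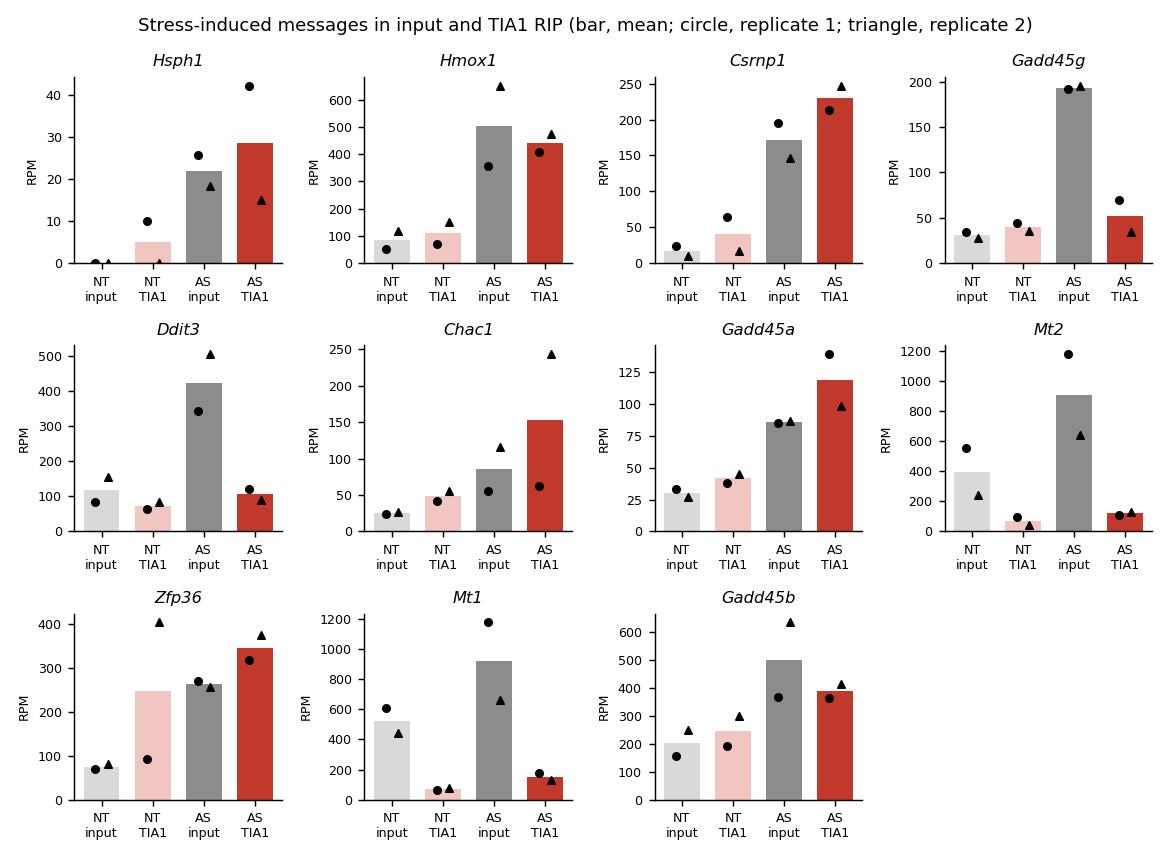
RPM (y axis, from 0) of 11 of the 12 stress-induced messages in NT and AS input and TIA1 RIP libraries. Bars are means of 2 replicates and symbols the replicates; for Mt1, Mt2, Ddit3 and Gadd45g both AS RIP values lie below both AS inputs, while for Hmox1, Gadd45b and Hsph1 they overlap.

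Several messages of the stress lists that did not pass the total RNA test also rose in the inputs. Hspa1b, an inducible HSP70, went from 6.86 and 10.7 RPM in the NT inputs to 306 and 674 RPM in the AS inputs, and from 7.52 and 8.30 RPM to 423 and 564 RPM in the RIP. Its ratio was 0.10 ± 0.51 in AS and −0.12 ± 0.36 in NT, and it was not called in either. Hspa1b has a near-identical paralog, Hspa1a, so its reads may be shared. Dnajb1, an HSP40, went from 37.9 and 17.0 to 254 and 149 RPM in the inputs and from 32.3 and 18.4 to 154 and 142 RPM in the RIP (−0.40 ± 0.46 in AS). For both chaperones the RIP followed the input.

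Heat shock proteins and co-chaperones had 2 of 20 genes called lower, near the 6.57% of all genes, and 0 higher (11.2% over all genes). Their median was −0.43, and −0.16 without AS replicate 2. At 1000 AS reads or more, 14 were left, with 1 called higher and 2 lower, against 729 and 418 of 2478 genes. Hspe1, the mitochondrial co-chaperonin, was lower (761 and 875 RPM in the inputs, 233 and 150 RPM in the RIP, −2.13 ± 0.59), and Hspa5 (BiP) was at −0.66 ± 0.44. The integrated stress response list had 4 of 21 genes lower (6.57% over all genes) and 1 higher (11.2% over all genes). Its median of 0.12 turned to −0.54 without AS replicate 1, to −0.15 without the lysate block and to −0.12 with DESeq2. Atf4, its central transcription factor, had 1219 and 1353 RPM in the inputs and 609 and 477 RPM in the RIP (−1.25 ± 0.36; adjusted p = 0.016), and Nupr1 was at −3.08 ± 0.68. The NRF2 and metal response had 3 of 16 lower and 2 higher, against 6.57% and 11.2% over all genes, and a median of −0.17. Gclc, an enzyme of glutathione synthesis, was higher (44.7 and 83.8 RPM in the inputs, 150 and 209 RPM in the RIP, 1.53 ± 0.30). Prdx1 was at −0.21 ± 0.10 and was not called.

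Binding efficiency in AS followed that in NT. Of the genes called higher in AS, 952 of 964 were above 0 in NT, and of those called lower 565 of 568 were below 0. In NT cells 967 genes were called higher and 691 lower, or 19.2% in all. The calls in both conditions numbered 678 higher and 399 lower, which is 70.3% and 70.2% of the AS calls and 70.1% and 57.7% of the NT calls, and 0 genes were called in opposite directions. Pearson's r between the mean ratios, over genes, was 0.63 over the 8641 genes and 0.88 over the 2478 with at least 1000 AS reads. AS and NT share no library.

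The difference between AS and NT passed the test for 0 genes (0.0% of 8641; edgeR), with 345 (3.99%) at an unadjusted p under 0.05, 222 (2.57%) higher in AS and 123 (1.42%) lower. DESeq2, which gave an adjusted p for 3950 genes, called 7 higher and 14 lower. With more than 5 reads required in each of the 8 libraries edgeR called 0 higher and 6 lower, and without a filter it called 1 and 7. The genes called both by DESeq2 and by edgeR with that requirement were Sec24b, Blm, Wwp2, Smarcal1, Ppp1r13l and AW555464. They are named after their values were seen. Each was higher in the NT RIP than in any other library.

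Smarcal1, an annealing helicase of stalled replication forks, had 27 and 65 reads in the NT inputs and 5084 and 5018 in the NT TIA1 libraries, against 29 and 72 reads in the AS inputs and 117 and 99 in the AS TIA1 libraries. Its binding efficiency was 0.44 ± 1.83 in AS and 6.35 ± 1.94 in NT. Sec24b, a COPII coat protein, had 165 and 122 reads in the NT inputs and 2899 and 13460 in the NT RIP. In AS cells it had 141 and 126 reads in the inputs and 696 and 1100 in the RIP, so it was higher in the RIP in both conditions, by 1.93 ± 0.16 in AS and 4.91 ± 0.83 in NT. Blm, the RecQ helicase, was at 0.88 ± 0.53 in AS and 3.95 ± 0.91 in NT. Atf3, a stress transcription factor called in the other direction by DESeq2, had 356 and 425 reads in the AS inputs, 151 and 663 in the AS RIP, 16 and 23 in the NT inputs and 0 and 0 in the NT RIP.

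The length of the message separated the genes called higher from those called lower. Genes called higher had a median 3′UTR of 2146 nt, genes called lower one of 181 nt and the other genes one of 661 nt. Across quintiles of 3′UTR length, from 30 to 242 nt up to 1807 to 14162 nt, the median binding efficiency was −0.68, −0.23, 0.13, 0.60 and 1.32. The share of genes called higher went from 1.5% in the first quintile to 32.9% in the fifth, and the share called lower from 20.4% to 0.2%. Each replicate pair and the NT cells showed the same order. Pearson's r with log2 of the 3′UTR length, over 8496 genes, was 0.52 in AS and 0.49 in NT.

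Coding sequences differed in the same sense, with median lengths of 1880 nt for genes called higher and 566 nt for genes called lower, and quintile medians from −0.66 to 0.95. Pearson's r with coding length was 0.42 in AS and 0.29 in NT over 8641 genes. Genes called lower were more abundant in the input (median 148 RPM) than those called higher (39.3 RPM) or not called (21.5 RPM). A gene with few input reads has little room to be called lower. The share called lower was 0.0% in the quintile of lowest input level and 22.0% in the highest. The input is part of the ratio, and r with it was −0.33. Abundance, coding length and 3′UTR length move together with the ratio, and their separate parts were not tested.

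**Figure D4:**
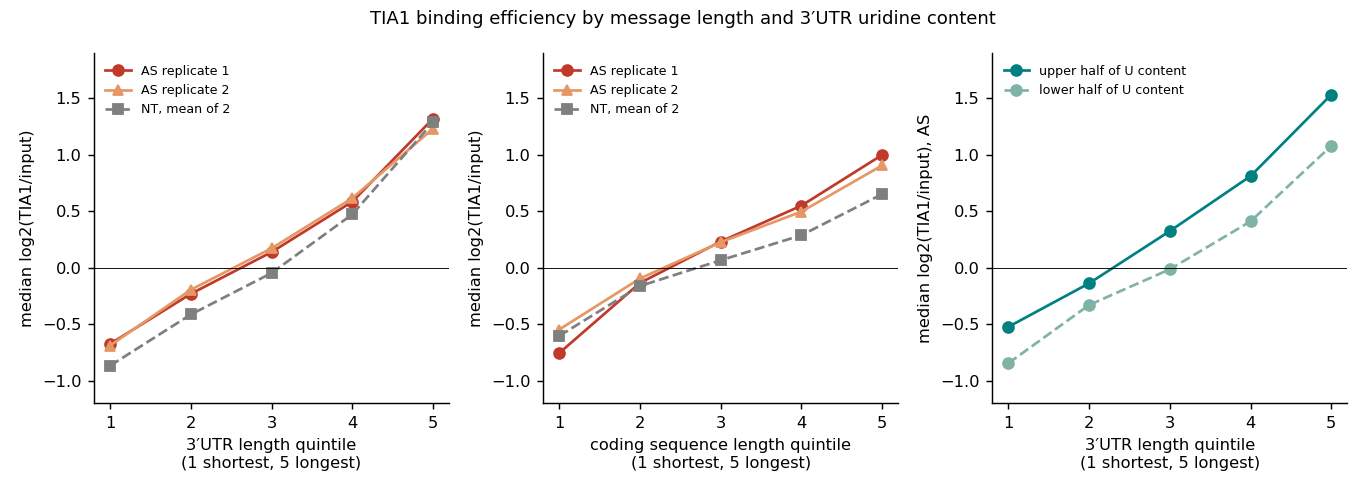
Median log2(TIA1/input) (y axes) by quintile of 3′UTR length (left), coding sequence length (middle) and, for AS, 3′UTR length with genes split at the median U content of their quintile (right). Both AS replicates rise from about −0.7 to above 1.2 with 3′UTR length, and genes in the upper part of U content lie above the others in each quintile.

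Uridine content differed less between the classes than length did. Across quintiles of U content, from lowest to highest, the median binding efficiency was −0.16, 0.09, 0.40, 0.55 and 0.45, with r = 0.18 over 8496 genes. Within each quintile of 3′UTR length, genes with U content above the median of that quintile were more bound than the others, with medians of −0.52 against −0.84 in the shortest and 1.53 against 1.08 in the longest. The richest 30-nt window held a median of 21 Us in genes called higher, 14 in genes called lower and 17 in all genes, and 65.6%, 3.4% and 29.5% of these genes had a window of at least 20 Us. A longer 3′UTR offers more windows, so this count also rises with length.

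To hold length constant, the last 200 nt before the PAS were searched on the message strand in the 7163 genes with at least that much 3′UTR. They held 945 genes called higher but only 258 of the 568 called lower, so most of the lower class, with its short 3′UTRs, was left out. Among the genes searched, UUUUU was found in 65.3% of those called higher, 31.4% of those called lower and 51.8% of all. UUUUUUU, which contains it, was found in 17.2%, 8.1% and 13.2%. The AU-rich pentamer AUUUA was found in 42.9%, 19.0% and 34.6%. CCCC went the other way, with 24.1%, 44.6% and 34.6%. Of the stress-induced messages called lower, Mt1, Mt2, Ddit3 and Gadd45g had 3′UTRs of 134, 137, 195 and 496 nt. Of those not called, Hmox1 had 146 nt, Hsph1 418 nt and the remaining 5 had 558 to 1077 nt.

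The same genes differed in another readout, the ratio of pre-existing (flow-through, Ft) to newly made (4sU-labelled) RNA, computed from 1 library of each kind per condition. A further pair of NT libraries, of the 4 h time point, was not used. In AS cells median log2(Ft/4sU) was −0.86 for genes called higher, 0.88 for genes called lower and 0.08 for the others. After 4 h of recovery it was −1.04, 0.97 and −0.17. Over 6923 genes r with binding efficiency was −0.49 in AS, and over 6946 genes it was −0.53 in recovery. In NT cells it was −0.47 over 7174 genes. No correction for the number of Us was made, so that the efficiency of 4sU labelling, which rises with the number of Us, enters these values. The change of total RNA in AS had r = −0.07 with binding efficiency over 8317 genes, and its medians were −0.10, −0.01 and −0.01 in the 3 classes.

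Alternative polyadenylation allows 2 lengths of 3′UTR to be compared within 1 gene. For 3149 genes with a proximal and a distal PAS (pPAS and dPAS, the most used pair of a gene, with at least 80 reads each), the region between them is the alternative 3′UTR (aUTR). The median difference in binding efficiency, dPAS minus pPAS, was 0.47 in AS pair 1 and 0.51 in AS pair 2. The dPAS isoform was the more bound one in both pairs in 1397 genes (44.36%) and the less bound one in both in 510 (16.2%), a ratio of 2.74. By quintile of aUTR length, from 25 to 129 nt up to 1812 to 8839 nt, the median difference was 0.07, 0.28, 0.46, 0.80 and 1.24.

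Single genes did not pass the isoform test: edgeR's quasi-likelihood test called 0 of 3149 (0.0%), the smallest adjusted p was 0.68, and 214 genes had an unadjusted p under 0.05, 184 of them with the dPAS more bound. No other tool was run on isoforms. When every library had to hold over 5 reads of both isoforms, 63 of 1468 genes were called for dPAS and 1 for pPAS, and with at least 500 reads of each isoform, a limit added after the data had been seen, 55 of 832 and 0. At 500 reads without the block there were 0 calls. The spread between pairs was large at the lower limit, with a median SD of 0.97 and r = 0.13 between pairs over genes.

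The genes that the study names for their 3′UTR isoforms, chosen in part on these libraries and so not independent evidence, numbered 9, or 10 gene IDs, since the annotation holds Purb under 2 IDs. Of these IDs 1 was called higher and 2 lower at the gene level, against 11.2% and 6.57% of all genes, with a median of −0.23. The call that was higher was 1 of the 2 IDs of Purb (2.55), while the other was at 0.67 and not called. At the isoform level Rpl22, a protein of the large ribosomal subunit, had isoforms of 56 and 1643 nt that were at −2.03 and −2.30 (pPAS) and −0.10 and −0.64 (dPAS). Its long isoform was thus closer to its input than its short one, by 1.80 ± 0.19. Nmt1, an N-myristoyltransferase, had 133 and 206 RPM of the short isoform in the inputs and 15.9 and 66.1 RPM in the RIP, against 105 and 42.4 RPM and 193 and 81.6 RPM of the long isoform, a difference of 3.26 ± 0.96. The differences of Tmem248 (0610007L01Rik in the annotation), Dnajb1 and Hspa4l were 3.36 ± 1.08, 1.31 ± 0.02 and 1.01 ± 0.21. That of Timp2 was 4.67 in pair 1 and 1.03 in pair 2. The dPAS isoform of Fam49b was listed at 0 in both inputs. None of these passed the test at the limit of 80 reads (edgeR).

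Among genes named after their values were seen, Bri3bp had 296 and 359 RPM of its short isoform in the inputs and 171 and 204 RPM in the RIP. Its long isoform, with 5269 nt more 3′UTR, had 60.4 and 55.7 RPM in the inputs and 394 and 235 RPM in the RIP. Serbp1, an mRNA-binding protein, had 1399 and 853 RPM of the short isoform against 881 and 433 RPM in the RIP, and 35.8 and 37.8 RPM of the long one against 174 and 188 RPM. The differences were 3.19 ± 0.42 and 3.11 ± 0.24. Tubb5 (β-tubulin), whose short isoform made 11321 and 10650 RPM of the inputs, had a difference of 1.73 ± 0.48. In each of these genes the 2 isoforms stood on opposite sides of their inputs in at least 1 pair.

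**Figure D5:**
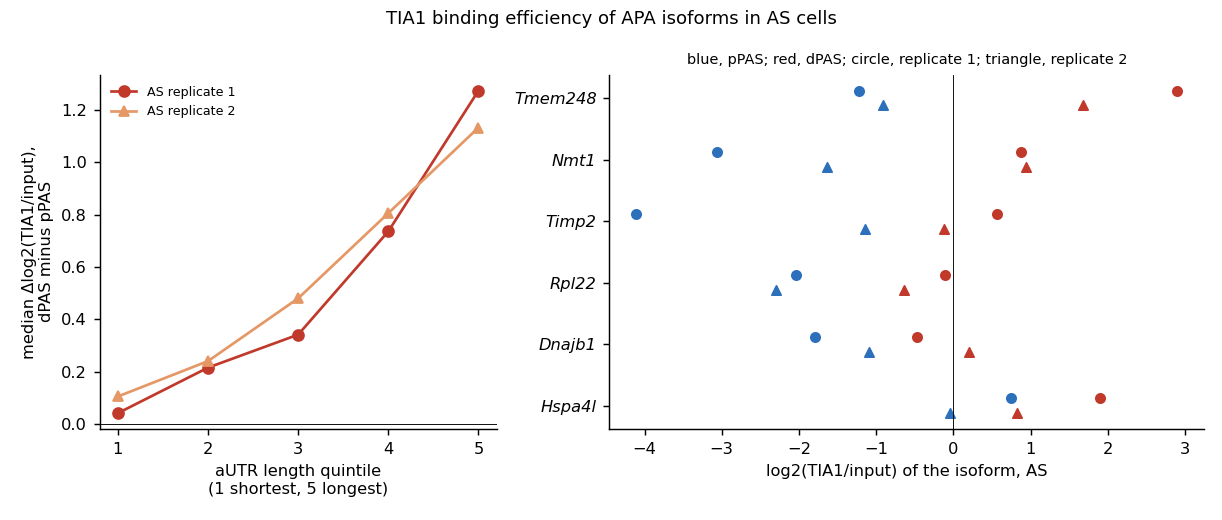
Left, median difference in log2(TIA1/input) between dPAS and pPAS isoforms (y axis) by quintile of aUTR length (x axis) for each AS replicate, from 0.04 and 0.10 in the first to 1.27 and 1.13 in the fifth. Right, log2(TIA1/input) (x axis) of the pPAS (blue) and dPAS (red) isoforms of 6 genes the study names; the dPAS value lies to the right of the pPAS value of the same replicate in all 6.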

How the data were processed

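Cytoplasmic RNA of AS and NT NIH3T3 cells before and after TIA1 RIP was measured by 3′READS in 8 libraries. Per the labels and the study's methods, the authors used Cutadapt for trimming and Bowtie2 for mapping to mm9, kept reads with nongenomic Ts, merged neighbouring PASs and deposited the read counts of each PAS, unnormalized. Tool versions are not given in the sources used here.

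Clusters of 38 3′READS libraries within 24 nt were joined. Those in the last exon of a protein-coding gene (GENCODE M1) or up to 4000 nt past it were kept, which gave 44825 PASs in 12972 genes. In all, 11928 (26.61%) lay past an annotated end and 125 ambiguous ones were left out. Mitochondrial genes were not tested.

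Gene counts were fitted in edgeR 4.0.16 (R 4.3.3) by the quasi-likelihood test over the 8 libraries, scaled by library totals, with the lysate (condition and replicate number) as a block. A TIA1 library and the input of its number came from 1 lysate, and their deviations correlated at 0.31 in AS and 0.29 in NT. Ratios per pair used an offset of 0.5 reads. Total RNA (replicates 1, 2 and 4) was fitted with RLE scaling and the replicate as a block, for genes with at least 60 reads. The isoform test used pPAS and dPAS at most 10000 nt apart. The fits of AS TIA1 against input, of total RNA and of isoforms were run on simulated data, and the contrast of AS and NT was not. The isoform simulation gave all libraries equal depth, which the real libraries do not have. Alternatives were TMM scaling, DESeq2 1.42.0, other filters, all PASs of a gene, no block and leaving out each replicate.

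Depth was 1956850 to 6143334 reads per RIP or input library, and precision is limited by 2 replicates. Genes and lists were chosen with earlier results of these data known. Named genes were the 12 highest and lowest called genes with at least 100 AS reads, the stress-induced genes, up to 4 members of each list by reads with its highest and lowest member, and genes the study names. The 12 highest and lowest with at least 1000 reads, the named AS to NT differences and other isoform genes were added after values were seen. Sequences are from the NCBIM37 genome. Some genes and sequences that these rules select are not reported here.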

Additional observations from a re-analysis of the deposited data

How the results depend on the processing

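The main limits are 2 replicates per group, the absence of a control-antibody library among those analysed here, and clusters under 5 reads being unlisted, which leaves low genes with wide spreads. In AS, the genes called numbered 964 higher and 568 lower. They were 800 and 663 with TMM scaling, 751 and 910 with DESeq2, 1035 and 618 with more than 5 reads in each library, 1078 and 665 without a filter, 1052 and 594 with all PASs of a gene, 1248 and 757 with the AS libraries alone and 729 and 418 at 1000 AS reads. Without the replicate block there were 94 and 76 calls. Leaving out 1 replicate gave 66 to 1241 higher and 89 to 749 lower, the lowest without AS replicate 1. For AS minus NT, 0 genes were called, against 7 higher and 14 lower with DESeq2, 0 and 6 with more than 5 reads in each library, 1 and 7 without a filter, 0 and 2 at 1000 reads, and 0 higher and 0 to 6 lower when 1 replicate was left out, the 6 without NT replicate 1. TMM scaling, all PASs of a gene and no replicate block gave 0.

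For isoforms, 0 calls became 63 for dPAS and 1 for pPAS with more than 5 reads of each isoform per library and 55 for dPAS with at least 500 reads. No replicate block, a distance of 5000 nt and leaving out a replicate gave 0. The 12 stress-induced genes became 0 with no replicate block and 30 with DESeq2. Leaving out replicates 1, 2 and 4 gave 10, 0 and 52, of which 4, 0 and 12 were among the 12, and the median binding efficiency, −0.23, was 0.0414 without replicate 1 and 0.1819 without replicate 4. The cause of these changes was not tested.

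The sign of some uncalled genes turned. With DESeq2 Hsph1 was at −0.014, Hspa1b at −0.13, Csf1 at −0.080, Mcl1 at −0.032 and Zfp68 at −0.23, and with TMM scaling Hspa1b at −0.0054 and Zfp68 at −0.11. Without AS replicate 1 and without AS replicate 2, the values were −0.29 and 0.71 for Hsph1, −0.46 and 0.19 for Hmox1, −0.26 and 0.47 for Hspa1b, −0.66 and 0.081 for Hnrnpd, −0.095 and 0.50 for Mcl1, −0.39 and 0.27 for Ccnb1, 0.86 and −0.11 for Fn1, −0.30 and 0.16 for Timp2, −0.016 and 0.61 for Rpl15, 6.44 and 0 for Atp5s, and −0.067 and 0.074 for Zfp68. Zfp68 was at −0.0065 without the replicate block. With all PASs of a gene Hsph1 was at −0.16 in AS. Its fitted difference between AS and NT, −7.18, rests on NT inputs listed at 0 in both replicates, so that its size depends on the prior count and is no bound. It was 0.30 with all PASs of a gene, 0.23 without NT replicate 1 and −7.91 without NT replicate 2.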
